A study of Mus musculus with 8 samples.

Results

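The pyruvate dehydrogenase complex and the kinases and phosphatases that switch it were examined in liver RNA of 8 male C57BL/6 mice. There were 10 genes, represented by 18 of the 45037 probe sets that are not array controls: the kinases Pdk1, Pdk2, Pdk3 and Pdk4, the phosphatase catalytic subunits Pdp1 and Pdp2, and the complex subunits Pdha1, Pdhb, Dlat and Pdhx. A probe set was taken when the platform annotation gave it exactly 1 gene symbol and that symbol was one of the 10. Probe sets of a gene were kept apart, since 5 genes had 1 and 5 had several. The set was selected on its Pdk4 signal, which stood out as lower in heterozygous liver in earlier work on these same arrays, and the other 9 genes were added for their function. Differences between genotypes are therefore given below as descriptions of the 10 genes, with no test of their own.

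The groups were 4 MTAP+/- mice, heterozygous for Mtap, and 4 MTAP+/+ wild-type mice. Mtap encodes methylthioadenosine phosphorylase, which recycles a by-product of polyamine synthesis. All mice were male, aged from 92 to 101 days, and 1 array was run per liver. No source used here gives the construction of the Mtap allele, the litters, the feeding state or the time of day at collection. The arrays measure a piece of whole liver, so fewer cells of a type and less RNA per cell cannot be told apart.

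Pyruvate dehydrogenase sits in the mitochondrial matrix and converts pyruvate to acetyl-CoA, the step that commits carbon from glucose to oxidation or fat synthesis. Pyruvate dehydrogenase kinases phosphorylate the E1 alpha subunit, encoded by Pdha1, and switch the complex off, and the phosphatases reverse this. Pdk4 is known as the kinase gene most readily induced by fasting, through PPAR-alpha, FOXO factors and glucocorticoids, and repressed by insulin, so that pyruvate is spared for gluconeogenesis while fat is burned.

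Windows upstream of the annotated starts show what sequence lies in front of Pdk4 and in front of the control genes Pdk2 and Pdp2. Each window holds the 250 bases before the start, taken from the RefSeq promoter table of GRCm38.p6, which had entries for 9 of the 10 genes and 11 windows in all. For Pdk2, which had 2 windows, the one with CACGTG is shown. Pdk4 lies at chr6:5496279-5496528 on the minus strand, Pdk2 at chr11:95041372-95041621 on the minus strand, and Pdp2 at chr8:104591222-104591471 on the plus strand. They are printed 5′ to 3′, with matches to the searched motifs in capitals, because these windows differ in the E-box CACGTG, the core motif of clock transcription factors, and a clock gene score is set beside Pdk4 further on.
Pdk4: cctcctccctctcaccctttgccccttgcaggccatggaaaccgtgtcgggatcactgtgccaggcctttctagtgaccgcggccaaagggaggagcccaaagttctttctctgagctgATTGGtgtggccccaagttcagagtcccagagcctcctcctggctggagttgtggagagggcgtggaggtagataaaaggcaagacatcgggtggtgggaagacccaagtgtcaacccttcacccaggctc
Pdk2: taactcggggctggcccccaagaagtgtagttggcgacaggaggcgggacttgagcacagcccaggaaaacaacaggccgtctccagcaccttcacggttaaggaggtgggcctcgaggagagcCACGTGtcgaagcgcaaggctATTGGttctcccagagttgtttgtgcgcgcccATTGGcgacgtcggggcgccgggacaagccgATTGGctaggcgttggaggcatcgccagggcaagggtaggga
Pdp2: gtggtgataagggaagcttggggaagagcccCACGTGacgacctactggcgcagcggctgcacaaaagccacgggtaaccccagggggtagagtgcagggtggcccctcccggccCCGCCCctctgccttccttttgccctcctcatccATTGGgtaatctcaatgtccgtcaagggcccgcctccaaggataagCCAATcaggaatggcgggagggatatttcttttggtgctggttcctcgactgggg

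Both strands of the 11 windows were searched for CACGTG, for TTATGTAA or TTACGTAA (the D-box of DBP and NFIL3), for AGGTCA (a nuclear receptor hexamer), for TGTTTAC (a forkhead core), for AGAACA (a glucocorticoid receptor hexamer), for CCAAT and for GGGCGG (a GC box). No searched motif contains another. The Pdk4 window held 1 match, a CCAAT box from 131 to 127 bases before the start. CACGTG was found upstream of Pdk2, from 126 to 121 bases before the start, and of Pdp2, from 219 to 214 bases before it. Of all 32851 windows of this length in the table, 6.02% held CACGTG, 33.8% held CCAAT, 32.7% held GGGCGG, 14.0% held AGGTCA, 16.1% held AGAACA, 3.17% held TGTTTAC and 0.931% held a D-box. AGAACA occurred in 1 window, the second of Pdk1, while the nuclear receptor hexamer, the forkhead core and the D-box occurred in none of the 11. A GC box was present upstream of 6 genes (Dlat, Pdhb, Pdhx, Pdk1, Pdk3 and Pdp2) and CCAAT upstream of 5 (Pdhb, Pdk2, Pdk3, Pdk4 and Pdp2). These are matches of letters within 250 bases and do not show that a factor binds or fails to bind.

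Values are RMA log2 signals, in which a difference of 1 is a doubling, and differences are MTAP+/- minus MTAP+/+. The check of the genotype came out as labelled, since all 4 Mtap probe sets were lower in every MTAP+/- liver, at 32.2% to 57.6% of the wild-type level. Across the arrays, values ran from 1.64 to 14.7 with medians of 3.92 to 3.98. Markers of hepatocytes were bright, with array means of 12.5 to 12.7 over 8 genes, while the means of muscle (3.64 to 3.85) and fat cell markers (2.54 to 2.80) lay near or under the array medians. MTAP+/- replicate 2 stood apart on the second principal component of all probe sets (44.1, the others from -29.5 to 14.8). On the first component MTAP+/+ replicate 4 (23.6) lay beside MTAP+/- replicates 1, 3 and 4 (23.4 to 24.9), and MTAP+/- replicate 2 (-35.6) lay on the side of MTAP+/+ replicates 1 and 2 (-25.6 and -31.3). Both arrays are left out in turn for the 10 genes and for the RNA quality measure, but not for the cell type markers.

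Pdk4, the fasting-induced kinase, had the largest difference of the 18 probe sets. Its signal was 5.49, 5.99, 4.95 and 5.63 in MTAP+/- replicates 1 to 4, and 7.63, 6.97, 6.94 and 6.49 in MTAP+/+ replicates 1 to 4. Every heterozygous liver lay below every wild-type liver, and the gap between the nearest livers, MTAP+/- replicate 2 and MTAP+/+ replicate 4, was 0.50. The means were 5.51 ± 0.43 (SD, n = 4) and 7.01 ± 0.47 (SD, n = 4), a difference of -1.49 ± 0.25 (SE), which puts the heterozygous level at 35.5% of the wild-type level, or 2.82-fold lower. The difference was larger without MTAP+/- replicate 2 (-1.65) or MTAP+/+ replicate 4 (-1.67), as it had to be with the nearest livers removed. It was -1.31 without MTAP+/- replicate 3, the lowest liver, and -1.29 without MTAP+/+ replicate 1, the highest. Pdk4 had a single probe set, so no second probe set bears on this value. Within each genotype the livers still spanned 1 log2 unit or more, from 4.95 to 5.99 and from 6.49 to 7.63.

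Across all probe sets, limma with Benjamini-Hochberg adjustment called 16 of 45037 at an adjusted p under 0.05, which is 0.0355%, and 0 of the 18 described here were among them. The genotypes did not overlap at 1 of the 18, Pdk4, against 4.35% of all probe sets in either direction and 2.22% in which MTAP+/- was lower. A larger difference in size than that of Pdk4 was seen at 46 probe sets, or 0.102% of all. Since Pdk4 chose the set through this same contrast, nothing is read from these counts.

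**Figure D1:**
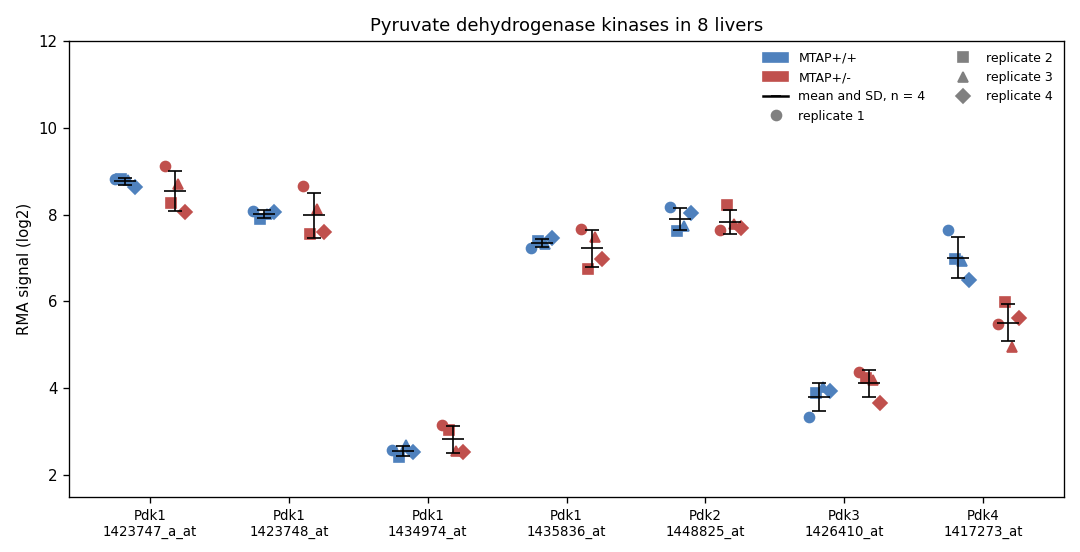
RMA signal (log2) of the 7 probe sets of the kinases Pdk1, Pdk2, Pdk3 and Pdk4 in each liver, with blue for MTAP+/+, red for MTAP+/-, marker shapes for replicate numbers, and black bars for the mean and SD of 4 livers. The Pdk4 groups are separate (4.95 to 5.99 against 6.49 to 7.63), and at every other kinase probe set they overlap.

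The other kinases showed no comparable separation. Pdk2, a widely expressed kinase that is a main isoform in liver, was at 7.63, 8.23, 7.78 and 7.68 in MTAP+/- replicates 1 to 4 and at 8.17, 7.63, 7.73 and 8.02 in MTAP+/+ replicates 1 to 4. These ranges almost coincided, and the difference was -0.06 ± 0.16 (SE). Its sign turned without MTAP+/- replicate 1 or without MTAP+/+ replicate 1.

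Pdk3, a kinase best known from testis, brain and kidney, was dim. Its signals were 4.38, 4.25, 4.19 and 3.67 in MTAP+/- and 3.34, 3.90, 4.04 and 3.93 in MTAP+/+ replicates 1 to 4. Several of these lay under the array medians, and no detection calls were used, so the signals alone do not show expression. The difference of 0.32 ± 0.19 (SE) was the largest in the higher direction among the 18, but without MTAP+/+ replicate 1, the lowest liver, it was 0.16 and below that of the dim Pdk1 probe set (0.27). Among the heterozygous livers replicate 4 lay below 3 of the 4 wild-type livers.

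Pdk1, the kinase known as a target of hypoxia signalling, had 4 probe sets, of which 3 were bright and tracked each other and 1 lay near the lowest signals of the arrays. At the second bright probe set, in the order of probe set names, Pdk1 read 8.65, 7.54, 8.13 and 7.59 in MTAP+/- and 8.09, 7.89, 8.01 and 8.06 in MTAP+/+ replicates 1 to 4. MTAP+/- replicate 1 was the highest of all 8 livers and replicates 2 and 4 were the lowest, while the wild-type livers sat close together. The other bright probe sets repeated this order of heterozygous livers at the top, with replicate 1 at 9.12 and 7.66, and differences of -0.22 ± 0.20 (SE) for the first and -0.12 ± 0.18 (SE) for the third. The difference at the second was -0.04 ± 0.22 (SE). Leaving out 1 heterozygous liver moved these values by more than 1.5 times, to -0.41 without replicate 1 and -0.06 without replicate 4 at the first, and to 0.03 without replicate 2 at the third. The SD over 4 livers of the bright probe sets was 0.43 to 0.52 in MTAP+/- and 0.09 to 0.10 in MTAP+/+, a difference in spread that was not tested. The dim probe set ran from 2.42 to 3.16 and had a difference of 0.27 ± 0.15 (SE), or 0.16 without MTAP+/- replicate 1, against the sign of the other 3.

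The phosphatase genes, which encode the enzymes that reactivate the complex, were near equal between the genotypes. Pdp2, the catalytic subunit known for its response to insulin and fasting, ranged from 7.09 to 7.54 in MTAP+/- and from 7.24 to 7.37 in MTAP+/+, a difference of 0.04 ± 0.11 (SE). Pdp1, the calcium-stimulated catalytic subunit and a gene of chromosome 4 like Mtap, had 2 dim probe sets with ranges over all 8 livers of 3.20 to 3.67 and 2.23 to 2.65. Their differences were 0.07 ± 0.12 and -0.005 ± 0.12 (SE). Both lay below every array's median, so little can be said of Pdp1 in liver from these arrays.

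The subunits of the complex itself were bright and moved little. Pdha1, the E1 alpha subunit that the kinases phosphorylate, had differences of 0.005 ± 0.15 and -0.17 ± 0.15 (SE) at its 2 probe sets, the first turning to -0.01 after arrays were centred on their medians and the second falling in size to -0.02 without MTAP+/+ replicate 2. At the first the livers ran from 9.34 to 9.76 in MTAP+/- and from 9.33 to 9.87 in MTAP+/+. Pdhb, the E1 beta subunit, was at -0.24 ± 0.14 and -0.04 ± 0.18 (SE), which became -0.12 and 0.15 without MTAP+/- replicate 2, with 10.1 to 10.7 in MTAP+/- and 10.5 to 10.8 in MTAP+/+ at the first probe set. Dlat, the E2 acetyltransferase core whose lipoyl domains anchor the kinases, had differences of 0.03 ± 0.15, 0.006 ± 0.15 and -0.16 ± 0.16 (SE) at 3 probe sets, the last ranging from -0.31 to -0.07 as MTAP+/+ replicate 3 or MTAP+/- replicate 3 was left out.

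Pdhx, the subunit that binds E3 to the core, had the largest difference in the lower direction after Pdk4. It was at 7.43, 7.09, 7.72 and 7.52 in MTAP+/- and at 7.85, 7.94, 7.70 and 7.56 in MTAP+/+ replicates 1 to 4. The groups overlapped, because MTAP+/- replicate 3 lay above MTAP+/+ replicates 3 and 4. The difference was -0.32 ± 0.14 (SE), and -0.20 without MTAP+/- replicate 2, the lowest liver.

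**Figure D2:**
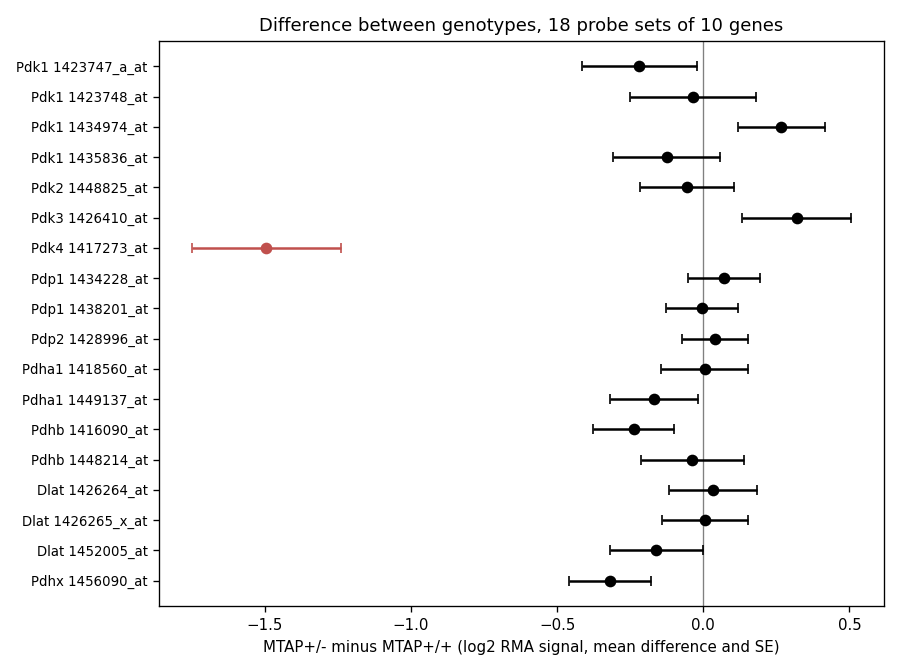
Difference between genotypes (MTAP+/- minus MTAP+/+, log2 RMA signal) of the 18 probe sets of the 10 genes, with points for the mean difference of 4 against 4 livers and bars for its SE. Pdk4 lies at -1.49, and the other 17 probe sets lie between -0.32 and 0.32.

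Among the 17 probe sets of the 9 genes other than Pdk4, 10 were lower and 7 higher in MTAP+/-, with a median of -0.04 beside -0.01 over all probe sets. The size of the difference was under 0.1 at 9 of the 17. MTAP+/- replicate 2 was the highest or lowest of the 8 livers at 8 of the 18 probe sets, the most of any array, with the lowest Pdhx and Pdhb signals and the highest signals at the first and the second Dlat probe sets (8.64 and 8.71) and at Pdk2. Nothing here bears on the phosphorylation of E1 alpha or on the activity of the complex, which were not measured.

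A clock gene score was set beside Pdk4, although none of its genes passed the adjusted threshold. Pdk4 is known to be expressed rhythmically in liver, and a score was formed as the mean of 8 clock-controlled genes (Dbp, Tef, Hlf, Per2, Per3, Nr1d1, Nr1d2 and Ciart) minus the mean of 5 genes of the opposite phase (Arntl, Npas2, Clock, Nfil3 and Cry1). It was 2.27, 2.19, 2.19 and 1.17 in MTAP+/- and -0.0006, 0.60, 0.34 and 0.95 in MTAP+/+ replicates 1 to 4. The genotypes did not overlap in the score either, and the wild-type liver with the highest score, replicate 4, had the lowest wild-type Pdk4, while that with the lowest score, replicate 1, had the highest. Among the heterozygous livers the order was different, since replicate 4 with the lowest score had neither the highest nor the lowest Pdk4. When each genotype was centred on its own mean, Pearson's r of Pdk4 with the score was -0.52 over the 8 livers, which was not tested. With the score as a covariate the Pdk4 difference was -0.74 ± 0.49 (SE), beside -1.49 ± 0.25 (SE) without it. The 95% interval with the covariate ran from -1.84 to 0.35. Since the score did not overlap between the genotypes, this fit separates it poorly from genotype. The smaller difference is therefore not read as a share due to the clock genes.

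**Figure D3:**
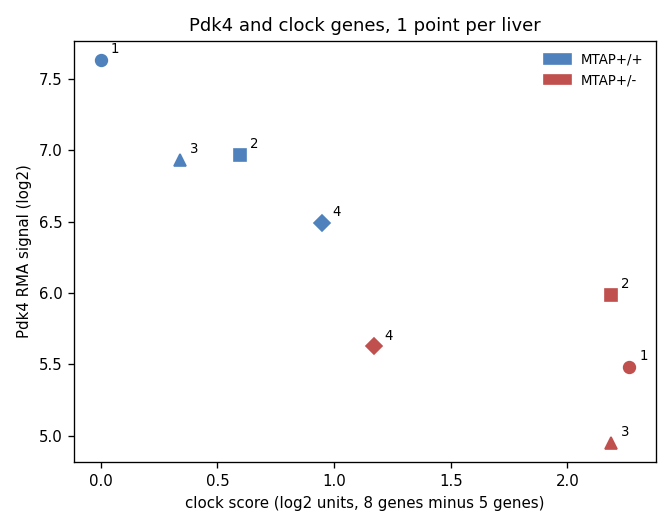
Pdk4 RMA signal (log2) against the clock score (mean log2 signal of 8 genes minus that of 5 genes), 1 point per liver, with blue for MTAP+/+, red for MTAP+/- and the replicate number beside each point. Wild-type livers have scores from -0.0006 to 0.95 and Pdk4 from 6.49 to 7.63, and heterozygous livers have scores from 1.17 to 2.27 and Pdk4 from 4.95 to 5.99.

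The lowest adjusted p among the clock genes, 0.127 from limma, was that of Arntl, which encodes BMAL1, at -1.51 ± 0.26 (SE), and of Per3 at 0.98 ± 0.17 (SE). Dbp, a clock output factor, had the largest difference, 2.35 ± 0.56 (SE), with overlapping groups and an adjusted p of 0.269. Of the 13 clock genes 0 passed limma's adjusted threshold, and 9 had an unadjusted p under 0.05, beside 9.36% of all genes. The part of the clock genes in the Pdk4 difference was not tested, and collection time cannot be told apart from genotype where it is not known.

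RNA quality and other cell types were set beside the same result. The difference of 3' and 5' control signals averaged 1.005 ± 0.19 in MTAP+/- and 0.960 ± 0.066 (SD, n = 4 each) in MTAP+/+ (exact two-sided permutation p = 0.743, for which 0.0286 is the smallest possible value). This near equality rested on MTAP+/- replicate 2 (0.713), since MTAP+/- replicates 1, 3 and 4 (1.10, 1.12 and 1.08) lay above every MTAP+/+ liver (0.880 to 1.04). Without replicate 2 the difference went from 0.045 to 0.142 (exact two-sided permutation p = 0.0571, the smallest that 3 against 4 can give), in a comparison chosen after seeing the data. With the 3' and 5' difference as a covariate over all 8 arrays, Pdk4 was at -1.41 ± 0.22 (SE), and the part of RNA quality in the Pdk4 difference was not otherwise tested. Macrophage markers were higher in MTAP+/- for 6 of 8 genes, with array means of 7.80 to 8.61 against 7.66 to 7.98. Lymphocyte and neutrophil markers were higher for 7 of 7, and the array means of the genotypes did not overlap (lowest MTAP+/- 4.30, highest MTAP+/+ 4.29). The largest differences, at S100a8 (0.71) and S100a9 (0.74), came with overlapping groups and the highest signals in MTAP+/- replicate 4 (6.45 and 7.66). Nkg7 (0.32) did not overlap. Cd3e differed by 0.009, and Cd3g and Ms4a1 were dim, with group means under every array median. By limma 0 genes of either list passed the adjusted threshold, with an unadjusted p under 0.05 for 4 and 1, and the part of these cells in the Pdk4 difference was not tested. Hepatocyte marker means overlapped between the genotypes, at 12.5 to 12.7 in both.

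The surroundings of the complex were described with 9 hand-written lists holding 146 different genes, 135 of them measured. Of these, 0 passed an adjusted p of 0.05 in limma, where 0.0385% of all 18193 genes did, the lowest adjusted p was 0.220, and 25 had an unadjusted p under 0.05, which 9.36% of all genes had. The genotypes did not overlap for 7 genes lower in MTAP+/- and 4 higher, of 135, beside 2.70% and 1.95% of all genes. The median difference over the 135 genes was -0.01, beside -0.02 over all genes. The values that follow are therefore measurements that did not pass the test.

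Genes that complete the complex or its lipoylation went both ways. Among 6 further complex and lipoylation genes 3 were higher and 3 lower (median -0.02), with Dld, the E3 subunit, at 0.23 ± 0.16, Lias, the lipoate synthase, at -0.15 ± 0.13, and Lipt1, a lipoyltransferase, at -0.31 ± 0.12 (SE). Related keto acid dehydrogenase genes had a median of -0.11 over 8 genes. Ppm1k, the phosphatase that activates the branched-chain complex, was at 0.69 ± 0.23 (SE), although its second probe set was at 0.08. Bckdk, the kinase of that complex and a relative of the Pdk genes, was at -0.16 ± 0.13, and Dlst, the E2 subunit of the oxoglutarate complex, at -0.15 ± 0.11 (SE). The other Dlst probe sets were at -0.17 and, with dim signals, at 0.40 and 0.62.

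Genes of pyruvate supply and its other fates were lower for 10 of 16 (median -0.13). Pcx, pyruvate carboxylase, which sends pyruvate to oxaloacetate, was at 9.02, 9.52, 9.11 and 8.60 in MTAP+/- and at 10.17, 10.02, 9.69 and 9.22 in MTAP+/+ replicates 1 to 4. MTAP+/+ replicate 4 fell within the heterozygous range, and the difference was -0.71 ± 0.23 (SE, adjusted p = 0.423 from limma). Me1, the malic enzyme, was at -0.70 ± 0.29, and Pklr, the liver pyruvate kinase, at -0.61 ± 0.24 (SE), with its 2 other probe sets at -0.70 and -0.58. Gpt2, an alanine aminotransferase, was at -0.29 ± 0.12 (SE) with no overlap, and its 3 other probe sets overlapped.

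Citrate cycle entry genes had a median of -0.03 over 18 genes, and the largest difference was at Cs. Cs, citrate synthase, was at 8.83, 9.23, 8.80 and 8.78 in MTAP+/- and at 9.60, 9.24, 9.31 and 9.49 in MTAP+/+. The groups touched but did not overlap, and the difference was -0.50 ± 0.13 (SE, adjusted p = 0.327 from limma), with -0.49 and -0.38 at its other probe sets. Idh3a, a subunit of isocitrate dehydrogenase, was at -0.43 ± 0.10 (SE, adjusted p = 0.257), again with no overlap, and 2 of its other 3 probe sets were at -0.42 and -0.44 while the last was at -0.07. Idh2, the NADP-linked enzyme, was at -0.39 ± 0.17 (SE).

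**Figure D4:**
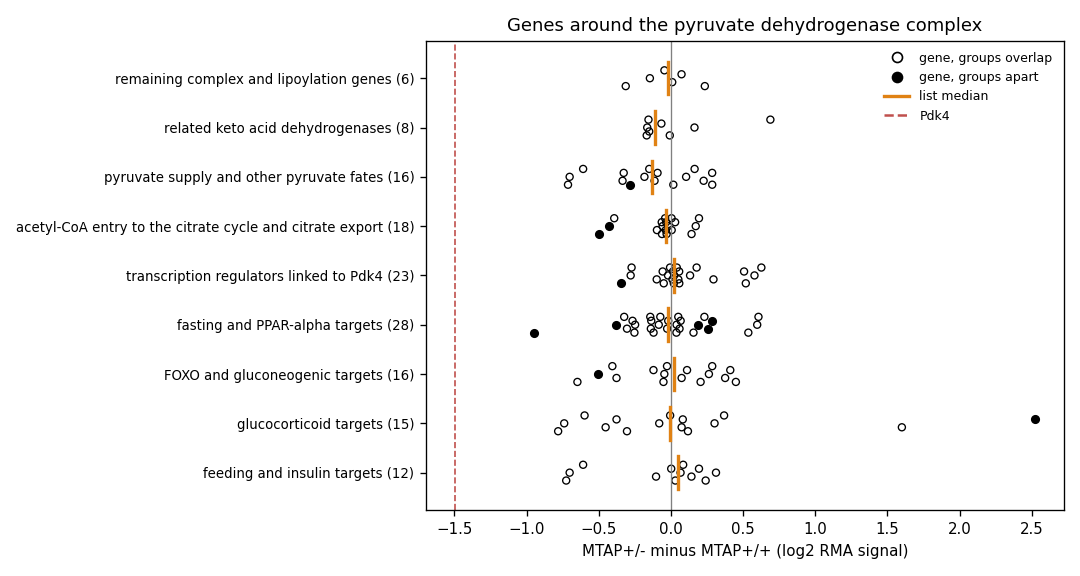
Difference between genotypes (MTAP+/- minus MTAP+/+, log2 RMA signal) of the measured genes of 9 hand-written lists, 1 circle per gene, filled where the groups do not overlap, with an orange line at each list's median and a dashed line at the Pdk4 difference of -1.49. List medians lie between -0.13 and 0.05, and the lowest single gene, Plin5, is at -0.95.

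Regulators known to act on Pdk4 showed no common direction, with 15 of 23 higher and a median of 0.02. Ppara, the receptor that induces Pdk4 in fasting, was at 10.18, 9.79, 10.14 and 9.53 in MTAP+/- and 9.04, 9.70, 9.33 and 9.26 in MTAP+/+, so that it was higher by 0.58 ± 0.17 (SE, adjusted p = 0.396 from limma) in the livers where Pdk4 was lower. Its 2 other probe sets were at 0.65, where the groups did not overlap, and at 0.41. Hif1a, the hypoxia factor, was at 0.63 ± 0.19 (SE), with its other probe sets at 0.52, -0.01 and -0.34. Stat5b, a growth hormone signal transducer, was at -0.35 ± 0.11 (SE) with no overlap. Its other probe set was at -0.32, where the groups overlapped.

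Fasting and PPAR-alpha targets did not follow Pdk4 as a list, with 13 of 28 higher, 15 lower and a median of -0.02. Plin5, a lipid droplet protein that couples droplets to mitochondria, was at 7.58, 7.04, 7.77 and 7.60 in MTAP+/- and at 8.90, 8.63, 8.18 and 8.06 in MTAP+/+. Its groups did not overlap, and the difference of -0.95 ± 0.21 (SE, adjusted p = 0.220 from limma) was matched by -0.97 at its second probe set. In the other direction lay Cpt1a, the gate of mitochondrial fatty acid oxidation, at 0.28 ± 0.09, Cd36, a fatty acid transporter, at 0.60 ± 0.18, and Ehhadh, a peroxisomal oxidation enzyme, at 0.26 ± 0.09 (SE). The groups did not overlap for Cpt1a, Ehhadh and Acot2 (0.19), all higher, nor for Acaa1b (-0.38), which was lower. Those of Cd36 overlapped at this probe set and at another (0.57), and did not overlap at the last (0.61).

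FOXO and gluconeogenic targets were evenly divided, 8 higher and 8 lower. G6pc, glucose-6-phosphatase, was at -0.65 ± 0.21, Ccng2, an atypical cyclin, at -0.51 ± 0.23 with no overlap, and Insr, the insulin receptor, at 0.26 ± 0.12 (SE). Glucocorticoid targets had a median of -0.01 over 15 genes. Tsc22d3, which encodes the anti-inflammatory protein GILZ, was at -0.74 ± 0.26 (SE) with overlap. Its other probe sets were at -0.85, where the groups did not overlap, and at -0.45 and -0.17, where they did. Cdkn1a, a cell cycle inhibitor, was at -0.78 ± 0.35, and Mt2, a metallothionein that inflammation also induces, at 2.52 ± 0.63 (SE) with no overlap. Feeding and insulin targets were higher for 8 of 12 genes and lower for 4, with a median of 0.05. The 3 genes of smallest p were all among the lower ones, namely Thrsp, a lipogenic regulator, at -0.73 ± 0.33 (SE), and Pklr and Me1 as given above.

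Genes whose pattern was most like that of Pdk4 were ranked by Pearson's r over the 8 livers, among 2676 genes with a mean signal of at least 6 and an SD of at least 0.25. The 6 highest were Coq8a (0.97), which supports ubiquinone synthesis, Tjp3 (0.96), a tight junction protein, Ddit4 (0.96), an inhibitor of mTORC1 signalling, Tssc4 (0.96), Nedd4l (0.95), a ubiquitin ligase, and Magix (0.95). After each genotype was centred on its own mean, their r with Pdk4 was 0.92, 0.86, 0.85, 0.85, 0.76 and 0.90. All 6 were lower in MTAP+/-, with differences from -1.26 for Ddit4 to -0.45 for Magix. The 4 most opposite were Upp2 (-0.97), a uridine phosphorylase, Zfp871 (-0.96), Rnd3 (-0.96) and Ubr1 (-0.95), a ubiquitin ligase, with centred values from -0.96 to -0.83. These are the extremes of 2676 comparisons over 8 livers that share the same arrays and the same contrast, so they describe a pattern and are not tested.

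The same measure was taken for the other 9 genes. Over the 8 livers their r with Pdk4 ran from -0.64 at Pdk3 to 0.48 at Pdhx, and after centring within genotypes from -0.71 at 1 Pdha1 probe set to 0.48 at 1 Dlat probe set. With 8 livers on shared arrays these are descriptions only.

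**Figure D5:**
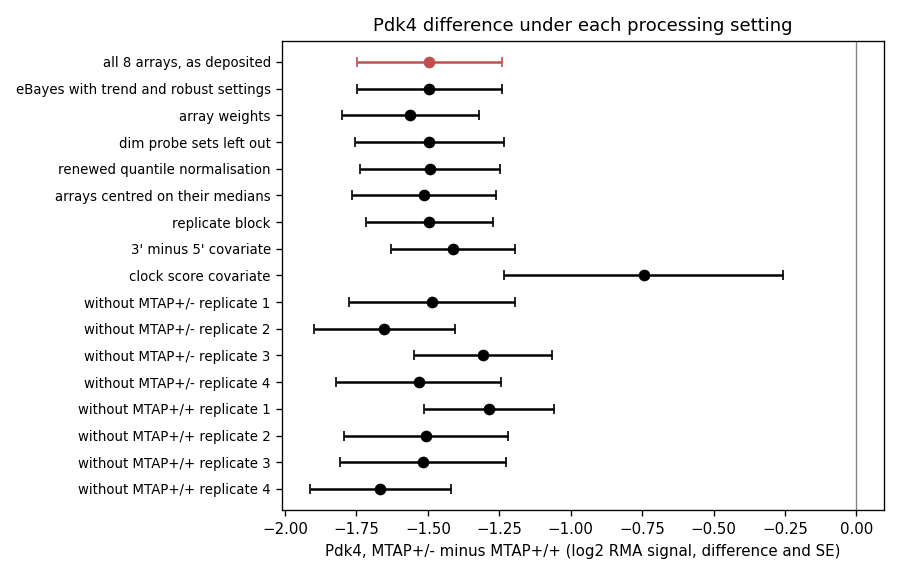
Pdk4 difference between genotypes (MTAP+/- minus MTAP+/+, log2 RMA signal) with all 8 arrays as deposited (red) and under each other processing setting (black), with bars for the SE. It lies between -1.67 and -1.29 in all settings shown but the clock score covariate, where it is -0.74.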

How the data were processed

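Each array measured TRIzol-extracted RNA of 1 liver, per the labels. The authors deposited RMA signals, per the submitters' processing notes, and their range shows a log2 scale. Software versions were not given in the sources used here. RMA shrinks differences of dim probe sets. The number of arrays limits the precision. The 45101 probe sets included 64 controls, which were left out. The platform annotation gave exactly 1 symbol for 34945 of the others.

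Genotypes were compared over all 45037 probe sets with limma 3.58.1 under R 4.3.3 (moderated by eBayes, 2-sided). Genotype was the sole term, and Benjamini-Hochberg adjusted p-values were called under 0.05. Each SE of a difference comes from this fit. The fit was tested on simulated data, where it recovered 18.6% of log2 changes of 0.5 and 99% of changes of 1.5. The simulated noise was independent between probe sets and left out variation shared within arrays. Many changes were also planted in each run, which loosens the adjusted cutoff, whereas the arrays gave 16 calls. Pdk4, at -1.49 in the arrays, was not called. These shares therefore need not hold for the arrays here. A gene outside the 10 was read from its probe set of highest mean. The p-values set the genotype difference against the spread within groups and treat the livers as independent. The labels do not say whether litters were shared, so this could not be checked. The 3' minus 5' values were compared by an exact permutation test in scipy 1.17.1. From each list, genes past the threshold and up to 3 of smallest p were named, then those without overlap, and 6 genes most and 4 least like Pdk4. Genes further named in lists without overlap were chosen after their values were seen. The members, lists and rules were chosen with earlier results of these data known. Names come from the platform annotation, and promoter windows from RefSeq tables of GRCm38.p6. Alternatives were other eBayes settings, array weights, a filter on dim probe sets, renewed quantile normalisation, median centring, the replicate number as a block, covariates for RNA quality and the clock score, and each array left out.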

Additional observations from a re-analysis of the deposited data

Results flagged for a closer look

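Within the groups of 4, an array standing far from the other 3 was looked for at each of the 18 probe sets, in 36 groups in all, of which chance flags about 1 in 20. There were 2. At the first bright Pdk1 probe set MTAP+/+ replicate 4 was at 8.62, below the other wild-type livers at 8.78 to 8.82, a gap of 0.16 in a tight group. At the third Dlat probe set MTAP+/- replicate 3 was at 5.64, below the other heterozygous livers at 5.95 to 6.01. No Pdk4 value stood apart from its group in this way.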

How the results depend on the processing

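The Pdk4 difference moved by less than the spread between livers under 15 of 16 alternatives and kept its sign under all 16. It was between -1.67 and -1.29 when any 1 array was left out. With the clock score covariate, which did not overlap between the genotypes, it was -0.74. Of 269 values of the other probe sets under alternatives, 8 moved by more than that spread, all with the clock score covariate. That covariate turned the sign of Pdk3 from 0.32 to -0.52. Differences near 0 at probe sets of Dlat, Pdha1, Pdhb, Pdk1, Pdk2, Pdp1 and Pdp2 changed sign under some alternatives. Scaling alone turned 1 probe set each of Dlat, Pdha1 and Pdp1. None of the 18 probe sets was called under any setting, and 0 pathway genes were called under all 17. Calls were rare throughout, at most 42 of all 45037 probe sets under any setting. These counts of 0 therefore say little about the 18 probe sets or the pathway genes.

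The count of probe sets called, 16 as deposited, was 42 with the 3' minus 5' covariate, 0 with the clock score covariate (limma, where 1512 had an unadjusted p under 0.05), 25 with the replicate block, and from 5 to 21 when 1 array was left out. It was 5 without MTAP+/- replicate 1, 7 without MTAP+/- replicate 3, 7 without MTAP+/+ replicate 1, 9 without MTAP+/+ replicate 2 and 6 without MTAP+/+ replicate 3. The cause was not tested. The difference of 3' and 5' control signals ran from 0.006 to 0.142 when 1 array was left out, an alternative chosen after seeing the data. Same-numbered livers had r of deviations of -0.07, 0.22, 0.005 and 0.23, and differently numbered livers were not set beside them. These values therefore cannot settle whether the numbers mark pairs. The main fit did not take them as pairs.

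Signal over background limits Pdp1, Pdk3 and 1 Pdk1 probe set, which lay near or under the array medians.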
